A study of Mus musculus with 2 samples.

Results

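The 9 genes described here are Notch ligands, receptors and targets: the ligands Dll1, Dll4, Jag1 and Jag2, the receptors Notch1 and Notch4, and the target genes Hes1, Hey1 and Heyl. They were taken by symbol from the 31053 genes of the count matrices, and all 9 were found in both. The study profiled single endothelial cells from the livers of 1 Gimap5 sph/sph mouse and 1 Gimap5 sph/+ mouse, both adult and on C57BL/6, which asks how liver endothelium differs when the immune GTPase gene Gimap5 carries the sph allele on both chromosomes. Both mice carry at least 1 sph allele, so no library of a fully wild-type mouse enters. Live cells without the leukocyte marker CD45 and with the endothelial marker CD31 were sorted, and each mouse gave 1 library made with the 10x Chromium 3' v3 kit. With 1 library per genotype no difference has a replicate check and no test was made. All intervals are at 95% and cover counting error only.

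Notch signalling passes between touching cells: a Delta-like or Jagged ligand on one cell pulls on a Notch receptor of its neighbour, which is cut and releases a fragment that enters the nucleus. There it joins the DNA-binding protein RBPJ and switches on repressors of the Hes and Hey families. In vessels the pathway is best known for arterial identity and for limiting sprouting. In the liver, sinusoidal endothelial cells (LSECs) line capillaries that run from the portal tracts to the central vein, and they differ in expression along that path.

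The sph/sph library held 16386 cell barcodes and 68983780 UMIs (counted RNA molecules), and the sph/+ library held 13136 barcodes and 64460283 UMIs, with 30 barcode sequences found in both. After filtering, 10847 of 11331 sph/sph cells (95.7%, 95.3 to 96.1) and 9924 of 10967 sph/+ cells (90.5%, 89.9 to 91.0) fell into endothelial-like clusters, with median depths of 3913 and 4371 UMIs per cell in sph/sph and sph/+. CPM below are the UMIs of a gene scaled to a total of 1000000. Over all deposited barcodes, before any selection, Pecam1, which encodes CD31, had a UMI in 84.4% of sph/sph and 89.3% of sph/+ barcodes. The endothelial junction gene Cdh5 had one in 84.9% of sph/sph and 92.3% of sph/+ barcodes, and Ptprc, which encodes CD45, in 0.128% of sph/sph and 0.0305% of sph/+ barcodes. Gimap5 itself stood at 104 CPM in sph/sph and 106 CPM in sph/+, and since sph is a missense allele this level does not check the labels.

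The endothelial cells of the 2 mice were of different kinds. In sph/sph, 7532 cells (69.4%) were continuous vascular-like, named from markers such as Cd34, Rgcc and Lpl, 1160 (10.7%) were lymphatic-like, 725 (6.68%) were cycling and 1427 (13.2%) stayed unnamed, and 3 cells fell into LSEC-like clusters. Of the unnamed cells, 909 formed cluster 8, led by Sprr2b and Tubb3, with 9 of 12 LSEC and 8 of 15 continuous vascular markers detected. It missed the LSEC-like name only because its top 10 genes held no LSEC marker, a rule set after the clusters were seen. It carried 2935 CPM of LSEC and 11435 CPM of continuous vascular markers. At the coarser resolution of 0.5, a cluster with 1033 sph/sph cells, also led by Sprr2b and Tubb3, met the LSEC-like rule. In sph/+, 9631 cells (97.0%) were LSEC-like, 123 (1.24%) were cycling and 154 stayed unnamed, with 8 cells each in continuous vascular-like and lymphatic-like clusters. Of the LSEC-like cells, 397 formed cluster 11, which stood apart: it carried 5933 CPM of LSEC and 14628 CPM of continuous vascular markers, against 20301 to 24309 CPM and 2604 to 4637 CPM of these in clusters 0 to 2. It had 11 of 12 LSEC markers detected but none among its top 10 genes, where the portal marker Adgrg6 gave it the name. The Notch genes were kept out of the genes that formed the clusters. A difference between whole libraries is therefore also a difference between these cell classes, and genotype, mouse, library and class cannot be told apart in it.

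Over all endothelial-like cells, the ligand Jag2 and the target Hey1 were the members that stood furthest apart: both were abundant in sph/sph and nearly missing in sph/+. The receptors differed in opposite directions, with Notch4 higher and Notch1 lower in sph/sph. Dll4 was at similar levels in the 2 libraries, Jag1 was higher in sph/sph, and Dll1 and Hes1 were lower. Of the 9 members, 8 were measured, meaning at least 20 CPM in either library, and Heyl was not. By a bound of 2-fold, sph/sph was higher for 3 of the 8 (Jag2, Hey1 and Notch4) and lower for 1 (Notch1). Among all 7463 measured genes the same bound was passed upward by 11.0% and downward by 10.6%. The median log2 ratio was 0.25 for the 8 members and -0.08 for all measured genes.

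**Figure D1:**
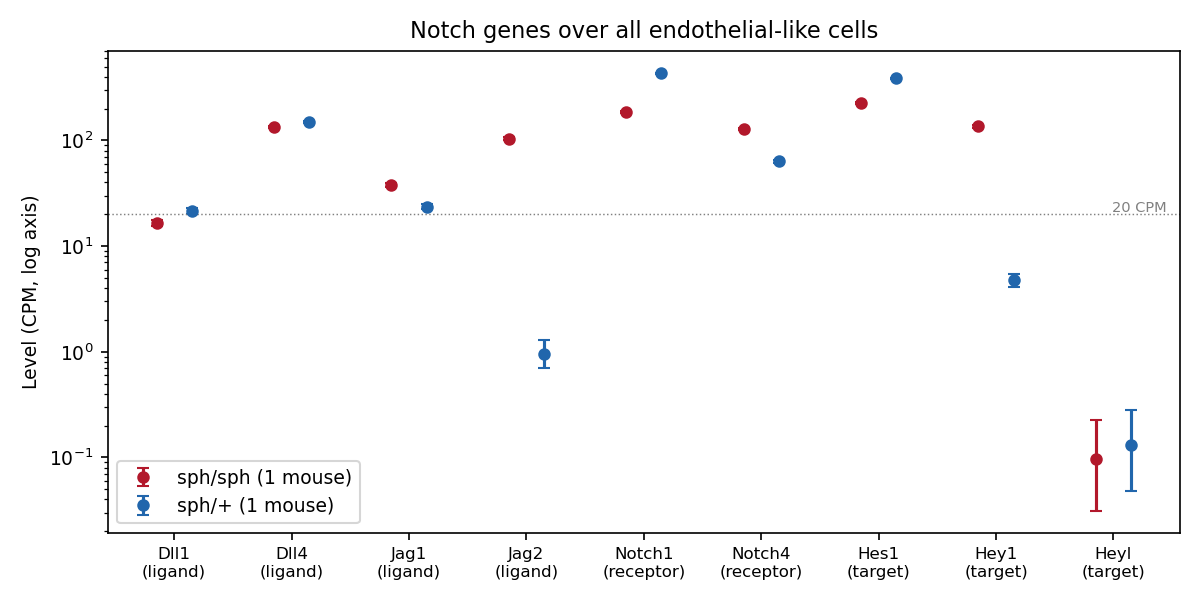
Level of each of the 9 genes, in CPM on a log axis, summed over the endothelial-like cells of sph/sph (red) and sph/+ (blue); points are 1 mouse each, bars are 95% exact Poisson intervals, and the dotted line is the 20 CPM floor for a measured gene. Jag2 (104 CPM in sph/sph, 0.956 CPM in sph/+) and Hey1 (136 CPM in sph/sph, 4.74 CPM in sph/+) are the furthest apart, and Heyl lies far under the floor in both.

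Among the ligands, 3 differed most in where they were found. Jag2 was found mainly in continuous vascular-like, cycling and some unnamed cells of sph/sph, Jag1 in a few clusters of either library, and Dll4 in most clusters of both. The stretches just before the RefSeq starts of these 3 genes are shown. They are the 250 bases before each RefSeq start on GRCm38.p6, read 5′ to 3′ on the gene's strand, at chr2:119325534-119325783 on the plus strand for Dll4, chr2:137116521-137116770 on the minus strand for Jag1 and chr12:112929496-112929745 on the minus strand for Jag2. RefSeq windows matched 6 of the 9 members. The gene positions given below come from GENCODE, whose starts differ. By those positions the whole Jag2 window and part of the Jag1 window lie inside the gene. Capitals mark the letters CACGNG on either strand, the kind of site that HES and HEY repressors bind.
Dll4: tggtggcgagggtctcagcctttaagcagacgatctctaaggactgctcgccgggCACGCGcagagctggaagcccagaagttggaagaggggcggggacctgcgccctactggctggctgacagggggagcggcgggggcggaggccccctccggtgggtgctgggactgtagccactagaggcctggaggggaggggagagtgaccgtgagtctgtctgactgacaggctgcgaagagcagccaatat
Jag1: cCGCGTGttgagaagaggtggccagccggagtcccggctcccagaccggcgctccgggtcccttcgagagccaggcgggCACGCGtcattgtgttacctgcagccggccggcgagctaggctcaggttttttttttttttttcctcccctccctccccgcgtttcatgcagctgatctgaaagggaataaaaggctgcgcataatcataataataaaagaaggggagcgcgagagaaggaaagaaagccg
Jag2: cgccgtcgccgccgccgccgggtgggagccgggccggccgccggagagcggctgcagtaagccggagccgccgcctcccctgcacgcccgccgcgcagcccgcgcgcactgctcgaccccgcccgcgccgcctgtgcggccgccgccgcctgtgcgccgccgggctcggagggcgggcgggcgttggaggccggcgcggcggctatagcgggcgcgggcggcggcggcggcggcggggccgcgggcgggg
Dll4 held 1 match, 195 bases before the start, Jag1 held 2, at 249 and 171 bases, and Jag2 held 0. Of 32851 windows of the same length, 23.5% held at least 1 match. The core of the RBPJ site, TGGGAA on either strand, was in 21.6% of the windows and in none of the 6 members' windows. These matches describe letters and are not bound sites. By the GENCODE positions the whole Notch1 window and part of the Notch4 window also lie inside the gene. Dll1 has a window inside the gene besides the one before its start.

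Jag2 is a Jagged ligand with roles in limb and thymus development in the mouse, and its gene lies at chr12:112907819-112929776 on the minus strand of GRCm38. It had 5433 UMIs in sph/sph (104 CPM, 102 to 107) and 44 UMIs in sph/+ (0.956 CPM, 0.695 to 1.28), a ratio of 109 (81.1 to 150). A Jag2 UMI was found in 33.9% of sph/sph cells and in 0.433% of sph/+ cells. With each cell thinned to 2000 UMIs, which left out 913 sph/sph and 387 sph/+ cells, the shares were 20.3% (19.5 to 21.1) in sph/sph and 0.189% (0.112 to 0.298) in sph/+. Free RNA can place UMIs in cells that do not make them: among 45 thinned hepatocyte-like cells of sph/sph the Jag2 share was 8.89% (2.48 to 21.2). All 118 hepatocyte-like cells of sph/sph, of which 73 had under 2000 UMIs and were not thinned, had a median of 1778 UMIs. Unthinned, 4.24% of the 118 had a Jag2 UMI, and together they carried 5321 CPM of continuous vascular markers. With only 12 such cells in sph/+ no share is given there. Within sph/sph, Jag2 was highest in cluster 6, led by Igfbp3, Cxcl12, Vegfa and Esm1, at 249 CPM (236 to 263). Next came cluster 12 at 165 CPM, and clusters 4, 5 and 3 at 151, 138 and 130 CPM. From cluster 12 to cluster 3, the intervals of neighbours in this order overlapped, so neighbours are not ordered beyond counting error. Lymphatic-like cluster 7 had 5.78 CPM (4.48 to 7.34). Continuous vascular-like cluster 15, led by Vwf, Fbln5 and Gja5, had a thinned Jag2 share of 8.27% (5.19 to 12.4). The thinned share was 22.9% in cluster 3 and 36.9% in cluster 6. Every sph/+ cluster of at least 50 cells was at or below 3.39 CPM.

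Dll4 is the Delta-like ligand of arterial and sprouting endothelium (chr2:119325784-119335962, plus strand). It had 6997 UMIs in sph/sph (134 CPM, 131 to 138) and 6929 UMIs in sph/+ (151 CPM, 147 to 154), a ratio of 0.892 (0.863 to 0.922). The direction of this small difference was not stable: the log2 ratio of -0.16 became 0.07 with each cell weighted equally, 0.09 without lymphatic-like cells and 0.22 for continuous vascular-like sph/sph cells against LSEC-like sph/+ cells. After thinning, 23.7% of sph/sph and 24.3% of sph/+ cells had a Dll4 UMI. In the hepatocyte-like cells of sph/sph the Dll4 share was 8.89%. The libraries were thus close for Dll4, while clusters within each differed widely. In sph/sph it was highest in cluster 6 at 297 CPM (283 to 312), then cluster 4, led by Hspa1a and Aplnr, at 212 CPM (200 to 224), and low in lymphatic-like cluster 7 at 42.6 CPM (38.9 to 46.5). In sph/+ it was highest in cluster 11, whose leading genes are Nrg1, Adgrg6 and Gja5, at 306 CPM (282 to 331), then cluster 1, led by the portal markers Msr1 and Ntn4, at 239 CPM (231 to 248). Cluster 2 of sph/+, led by the central markers Wnt2 and Kit, had 50.9 CPM (46.8 to 55.1).

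Jag1, the Jagged ligand needed for bile duct formation (chr2:137081456-137116644, minus strand), had 1985 UMIs in sph/sph (38.1 CPM, 36.5 to 39.8) and 1084 UMIs in sph/+ (23.6 CPM, 22.2 to 25), a ratio of 1.62 (1.5 to 1.74). Its UMIs came from few clusters in each library. In sph/sph, lymphatic-like cluster 7 held 42.6% of them at 72.9 CPM, and cluster 15, a group of 267 cells led by Vwf, Fbln5 and Gja5, held 18.7% at 237 CPM (213 to 262). In sph/+, cluster 11 with 397 cells held 46.9% of Jag1 UMIs at 246 CPM (225 to 268). These 2 clusters also carried the most arterial marker RNA among named endothelial-like clusters of their library, 4563 CPM in cluster 15 of sph/sph and 2137 CPM in cluster 11 of sph/+. The remaining continuous vascular-like clusters of sph/sph had 8.34 to 31.8 CPM. The remaining LSEC-like clusters of sph/+ had 3.67 to 29.1 CPM. Without lymphatic-like cells the log2 ratio of Jag1 dropped to 0.25, against 0.67 with them. Those lymphatic-like cells had a median of 9738 UMIs, far above that of either library, and 1669 CPM of stellate or fibroblast markers, a list that shares Reln with the lymphatic list. The part these play in the Jag1 level was not tested.

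Dll1, a Delta-like ligand (chr17:15367354-15376872, minus strand), had 861 UMIs in sph/sph (16.5 CPM, 15.4 to 17.7) and 992 UMIs in sph/+ (21.6 CPM, 20.2 to 22.9), a ratio of 0.767 (0.699 to 0.841). It overlaps A930024N18Rik on the other strand, so reads of the 2 genes may have been mixed if counting ignored strand. In sph/sph, 53.8% of its UMIs came from the lymphatic-like cells, at 39.9 CPM. Clusters 3 to 6 of the continuous vascular-like class had 3.11 to 5 CPM, and cluster 15 of that class had 61.9 CPM (50.2 to 75.6). LSEC-like clusters of sph/+ ranged from 13.0 CPM in cluster 0 to 42.1 CPM in cluster 11. Without lymphatic-like cells Dll1 was more than 2-fold lower in sph/sph, with a log2 ratio of -1.06, which made it the second member lower by that measure.

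Cells with UMIs of more than 1 of the 4 ligands were more frequent in sph/sph after thinning. In sph/sph, 56.5% of cells had a UMI of no ligand, 35.6% of exactly 1, 7.50% of 2 and 0.383% of 3. In sph/+, 70.4% had none, 27.1% had 1, 2.38% had 2 and 0.157% had 3. These are shares of detection at 2000 UMIs per cell, which depth lowers and free RNA raises. They are not independent of the Jag2 result, since the thinned Jag2 share was 20.3% in sph/sph and 0.189% in sph/+. The thinned Dll4 share was 23.7% in sph/sph and 24.3% in sph/+.

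Notch1, the main endothelial Notch receptor (chr2:26457903-26516663, minus strand), had 9599 UMIs in sph/sph (184 CPM, 181 to 188) and 19867 UMIs in sph/+ (432 CPM, 426 to 438), a ratio of 0.427 (0.417 to 0.437). After thinning, 30.6% of sph/sph cells and 57.1% of sph/+ cells had a UMI of it. In the hepatocyte-like cells of sph/sph the share was 6.67%. Continuous vascular-like clusters of sph/sph ran from 145 CPM in cluster 5 to 321 CPM (294 to 351) in cluster 15. LSEC-like clusters of sph/+ ran from 396 CPM (387 to 406) in cluster 0 to 504 CPM in cluster 1. These ranges did not meet, but how many of all genes have ranges apart in this way was not counted. The lowest level in sph/sph was in the lymphatic-like cells, at 104 CPM (98.0 to 110). The smaller cycling and unnamed clusters of sph/+, at 271 to 293 CPM, lay inside the sph/sph range.

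Notch4, a receptor largely restricted to endothelium (chr17:34564268-34588503, plus strand), had 6737 UMIs in sph/sph (129 CPM, 126 to 132) and 2909 UMIs in sph/+ (63.2 CPM, 60.9 to 65.6), a ratio of 2.05 (1.96 to 2.14). It thus sat at the 2-fold bound, and its log2 ratio of 1.02 dropped to 0.98 with 5 CPM added or with a stricter cell filter. After thinning, 25.1% of sph/sph and 11.9% of sph/+ cells had a Notch4 UMI, beside 11.1% of the hepatocyte-like cells of sph/sph. The sph/sph level differed widely between classes: continuous vascular-like cells had 177 CPM (172 to 182), with 244 CPM in cluster 6 and 114 CPM in cluster 15, and lymphatic-like cells had 7.93 CPM (6.40 to 9.73). LSEC-like clusters of sph/+ stayed between 53.3 and 73.1 CPM. Without lymphatic-like cells the log2 ratio was 1.36.

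Hey1, a repressor and direct Notch target in arterial endothelium (chr3:8663359-8667256, minus strand), had 7061 UMIs in sph/sph (136 CPM, 132 to 139) and 218 UMIs in sph/+ (4.74 CPM, 4.13 to 5.41), a ratio of 28.6 (25 to 32.9). After thinning, 20% of sph/sph cells (19.2 to 20.8) and 0.703% of sph/+ cells (0.545 to 0.891) had a Hey1 UMI, and in the hepatocyte-like cells of sph/sph the share was 6.67% (1.40 to 18.3). In sph/sph it was highest in cluster 6 at 359 CPM (344 to 376). Cluster 3, led by Rgcc and Lpl, followed at 154 CPM (147 to 162). Cycling cluster 14 had 140 CPM and lymphatic-like cluster 7 had 139 CPM (132 to 146), levels that did not differ beyond counting error. Cluster 15, the sph/sph cluster with the most arterial marker RNA, had only 22.3 CPM (15.6 to 31.1), and unnamed cluster 8, led by Sprr2b and Tubb3, had 12.3 CPM. In sph/+, most Hey1 UMIs came from portal cluster 1 (39.9%, at 6.59 CPM) and cluster 11 (39.4%, at 41.6 CPM, 33.3 to 51.4). Cluster 2 of sph/+, the central cluster, had 0.520 CPM.

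Hes1, a repressor induced by Notch and by other signals (chr16:30064384-30067796, plus strand), had 11786 UMIs in sph/sph (226 CPM, 222 to 230) and 17866 UMIs in sph/+ (388 CPM, 383 to 394), a ratio of 0.583 (0.569 to 0.597). After thinning, 29.0% of sph/sph and 46.3% of sph/+ cells had a UMI of it, beside 17.8% (8 to 32.1) of the hepatocyte-like cells of sph/sph, an interval that holds the sph/sph share. The clusters of the 2 libraries overlapped. In sph/sph cluster 4 had 456 CPM (438 to 474), and the other continuous vascular-like clusters had 178 to 234 CPM. In sph/+ cluster 1 had 516 CPM, cluster 11 had 498 CPM, cluster 0 had 386 CPM and cluster 2 had 251 CPM (242 to 260), with overlapping intervals for clusters 1 and 11. Cluster 4 was led by the heat shock gene Hspa1a and carried 4546 CPM of immediate early genes, which respond to cell stress, and cluster 6 carried 4705 CPM of them with Hes1 at 178 CPM. The part of these in the Hes1 level was not tested. Hes1 and Hey1 thus did not share an order: cluster 6 was highest for Hey1 and lowest of the continuous vascular-like clusters for Hes1.

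Heyl (chr4:123233556-123249875, plus strand), a target known from vascular mural cells, had 5 UMIs in sph/sph (0.0960 CPM) and 6 UMIs in sph/+ (0.130 CPM), so no difference could be measured at this depth. Of the UMIs, 4 of 5 in sph/sph lay in cluster 6, and all 6 in sph/+ lay in clusters 1 and 11.

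**Figure D2:**
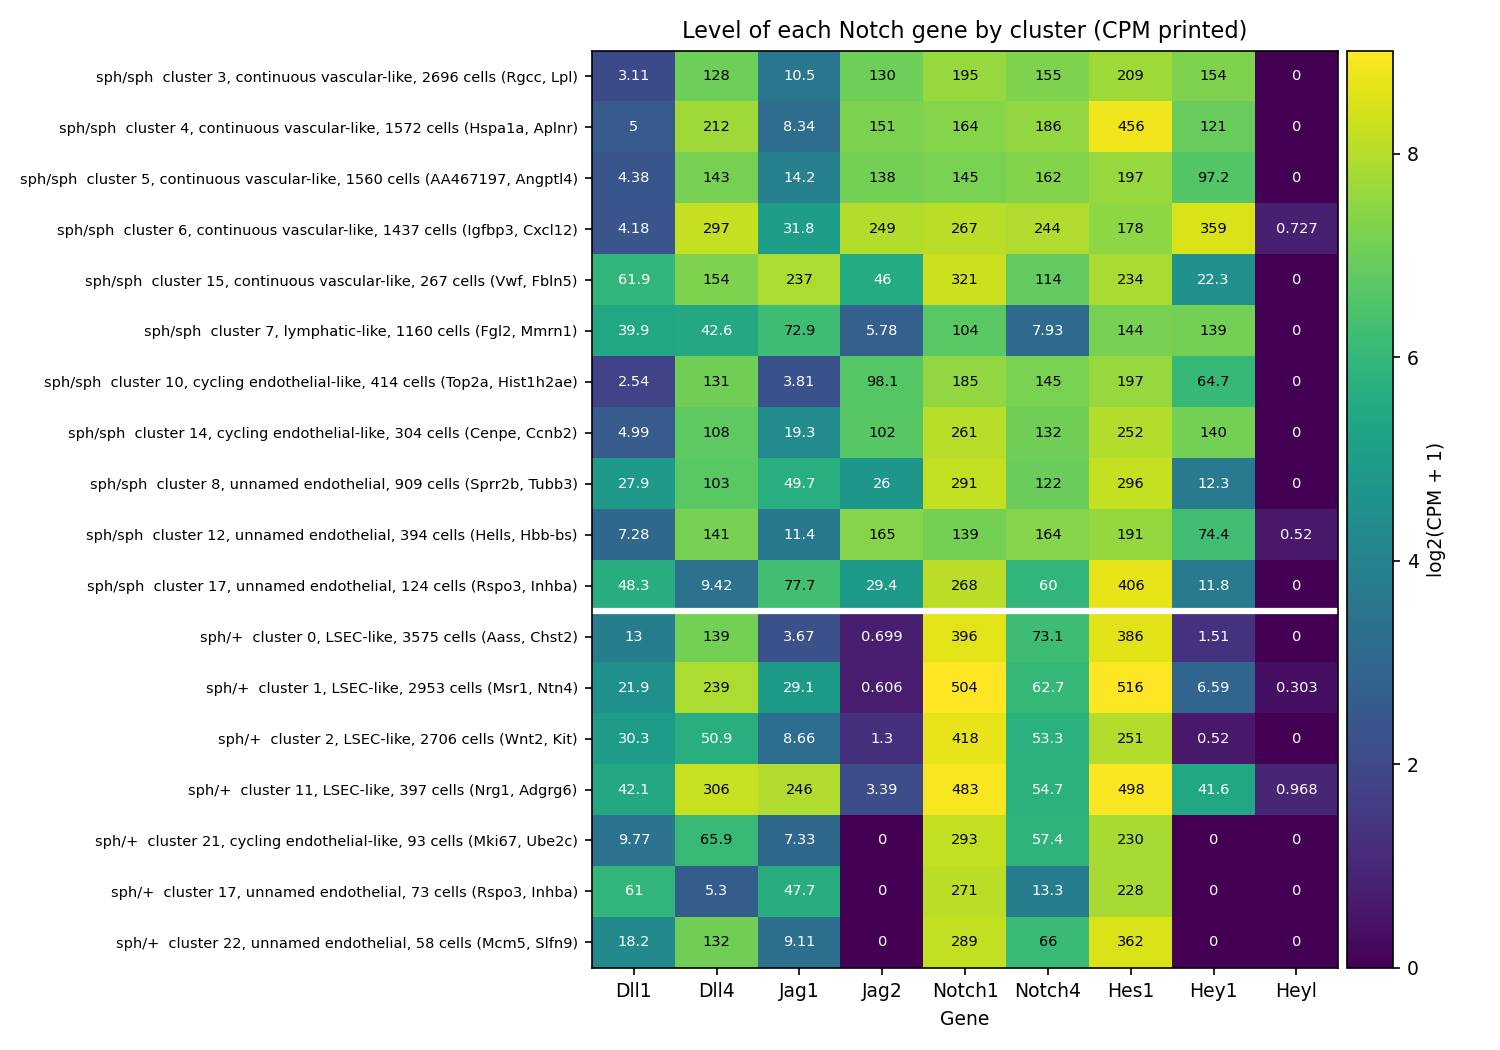
Level of each gene (columns) in each endothelial-like cluster of at least 50 cells (rows, sph/sph above the white line and sph/+ below it, with cell number and leading genes); numbers are CPM and colour is log2(CPM + 1). Jag2, Notch4 and Hey1 are high in the rows of clusters 3 to 6 of sph/sph, while Jag1 peaks at 237 CPM in cluster 15 of sph/sph and at 246 CPM in cluster 11 of sph/+.

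Within the LSEC-like cells of sph/+, Dll4, Jag1 and Hes1 were higher toward the portal end, and the receptors changed little. The 9577 cells with at least 5 UMIs of 9 central and 6 portal markers were ordered by their central share and divided into 5 bins of 1915 or 1916 cells, leaving out 54 cells. The bins are ranges of a score, and 4088 cells lay within 5 percentage points of a boundary. The portal markers include Efnb2, the gene most like Dll4 over the clusters (Pearson's r of 0.906). The part of Efnb2 in the order of Dll4 over the bins was not tested. From the central to the portal end, Dll4 had 48.4, 80.8, 136, 206 and 296 CPM, so each bin exceeded the one before it. Jag1 had 8.88, 7.48, 9.30, 34.1 and 61.3 CPM, flat over the first 3 bins and higher in the last 2. Hes1 had 235, 304, 439, 465 and 515 CPM. The ratios of the portal bin over the central bin were 6.11 (5.48 to 6.82) for Dll4, 6.91 (5.36 to 9.01) for Jag1 and 2.19 (2.07 to 2.31) for Hes1. Cluster 11 lay mostly in the last 2 bins, with 136 and 222 cells there, and held 179 of the 311 and 271 of the 511 Jag1 UMIs. Without it Jag1 had 15.7 CPM in the fourth and 33.5 CPM in the fifth bin, and its log2 ratio of portal over central dropped to 1.80, against 2.66 with it. Dll4 and Hes1 without it had log2 ratios of 2.53 and 1.16, close to 2.59 and 1.13 with it. With 3 bins the Hes1 log2 ratio was 0.97, just under 2-fold. Of 6 measured members 3 were at least 2-fold higher at the portal end and 0 were lower, where 2.05% of 6987 measured genes were higher and 2.48% were lower.

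Hey1 was also higher toward the portal end at levels under the 20 CPM floor, with 0.129, 0.770, 2.82, 6.25 and 13.6 CPM over the 5 bins, with 1 UMI in the central bin and 113 in the portal bin, 50 of them in cluster 11. Notch1 had 403, 411, 423, 452 and 503 CPM, a portal over central ratio of 1.25 (1.19 to 1.31). Notch4 was highest in the middle bin at 76.1 CPM, with 55.1 CPM at the central and 61.7 CPM at the portal end. Dll1 ran the other way at its ends, with 29.4 CPM centrally, 16.1 CPM in the middle bin and 21.8 CPM at the portal end, a ratio of 0.744 (0.609 to 0.908). Jag2 stayed at 1.43 CPM or lower in every bin.

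**Figure D3:**
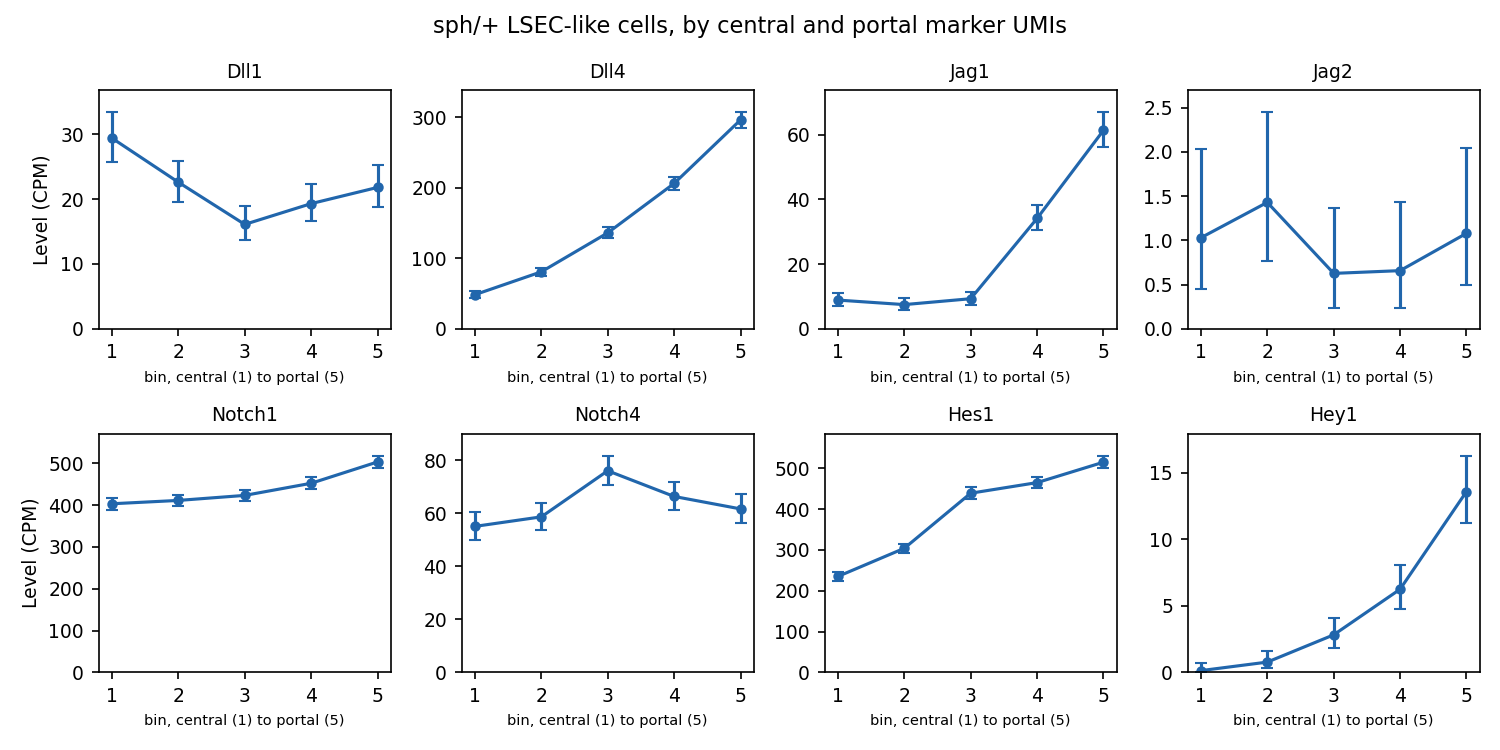
Level in CPM (linear axes from 0, each panel on its own scale) of 8 genes over 5 bins of sph/+ LSEC-like cells, from the central (1) to the portal (5) end; bars are 95% exact Poisson intervals. Dll4, Jag1, Hes1 and Hey1 climb toward bin 5, with Dll4 at 48.4 CPM in bin 1 and 296 CPM in bin 5, while Notch1 and Notch4 change by little.

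In the groups where both libraries had at least 25 cells, Jag2 and Notch4 were again higher in sph/sph, while the lower Notch1 was small or not seen. Cluster 17, led by Rspo3, Inhba, Wnt9b and Vwf, was the only endothelial-like cluster of this kind, with 124 sph/sph and 73 sph/+ cells. It carried 6977 CPM of central LSEC markers in sph/sph and 9542 CPM in sph/+, and stayed unnamed, with 8 of 12 LSEC and 8 of 15 continuous vascular markers detected. There Jag2 had 29.4 CPM from 25 UMIs in sph/sph and 0 UMIs in sph/+, at least 3.7-fold higher in sph/sph when 3 UMIs are set for sph/+, and 2.79-fold by the lower bound of the ratio's interval. Notch4 had 51 UMIs in sph/sph (60 CPM) against 5 in sph/+ (13.3 CPM), giving a ratio of 4.53 (1.82 to 14.5). Hepatocyte-like cells of sph/sph had similar levels, with Jag2 at 30.5 CPM (13.2 to 60) and Notch4 at 60.9 CPM (34.8 to 99). The part of free RNA in the Jag2 and Notch4 levels of cluster 17 was not tested. Hes1 had 406 CPM in sph/sph and 228 CPM in sph/+, a ratio of 1.78 (1.40 to 2.28), which is opposite in direction to that over all cells. Immediate early genes stood at 5975 CPM in sph/sph and 3490 CPM in sph/+ in this cluster, and LSEC markers at 1694 CPM in sph/sph and 3737 CPM in sph/+, and their part in the Hes1 difference was not tested. Notch1 had 268 CPM in sph/sph and 271 CPM in sph/+, a ratio of 0.992 (0.782 to 1.27). For Jag1, with 77.7 CPM in sph/sph and 47.7 CPM in sph/+, and for Dll1, with 48.3 CPM in sph/sph and 61.0 CPM in sph/+, the interval of the ratio reached 1. Hey1 had 10 UMIs in sph/sph and 0 in sph/+, and Dll4 had 8 UMIs in sph/sph and 2 in sph/+. Of 6 measured members 2 passed 2-fold upward, against 12.1% of all 7497 measured genes, and 0 passed it downward, against 12.2%. The cluster depends on the resolution: at 0.5 no endothelial-like cluster had 25 cells of each library, since 70 sph/+ cells stood alone and sph/sph cells of this kind joined the cluster of 1033. At 2.0 a cluster of 142 sph/sph and 37 sph/+ cells remained, with ratios of 2.71 (1.1 to 8.64) for Notch4, 1.77 (1.34 to 2.38) for Hes1 and 1.01 (0.768 to 1.35) for Notch1, and Jag2 at 27 UMIs in sph/sph and 0 in sph/+ (lower bound 1.57).

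Cycling cells gave a second setting, with 725 sph/sph and 123 sph/+ cells, but different clusters hold them: 10 and 14 in sph/sph, 21 and 23 in sph/+. Their marker RNA differed too, with 20326 CPM of continuous vascular and 409 CPM of LSEC markers in cluster 10 of sph/sph, against 2346 and 11834 CPM of these in cluster 21 of sph/+. Jag2 had 98.1 CPM in sph/sph and 0 UMIs in sph/+, at least 34-fold higher when 3 UMIs are set for sph/+, and 27.5-fold by the lower bound of the interval. Hey1 had 93.4 CPM in sph/sph and 1.92 CPM from 2 UMIs in sph/+, a ratio of 48.5 (13.3 to 402). Notch4 had 137 CPM in sph/sph and 59.6 CPM in sph/+, a ratio of 2.30 (1.77 to 3.04). Notch1 had 215 CPM in sph/sph and 297 CPM in sph/+, a ratio of 0.724 (0.635 to 0.827). Dll4 had 121 CPM in sph/sph and 90.4 CPM in sph/+, and Hes1 had 219 CPM in sph/sph and 223 CPM in sph/+. Here 3 of 6 measured members passed 2-fold upward, against 9.85% of 7706 measured genes, and 0 downward, against 14.5%.

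**Figure D4:**
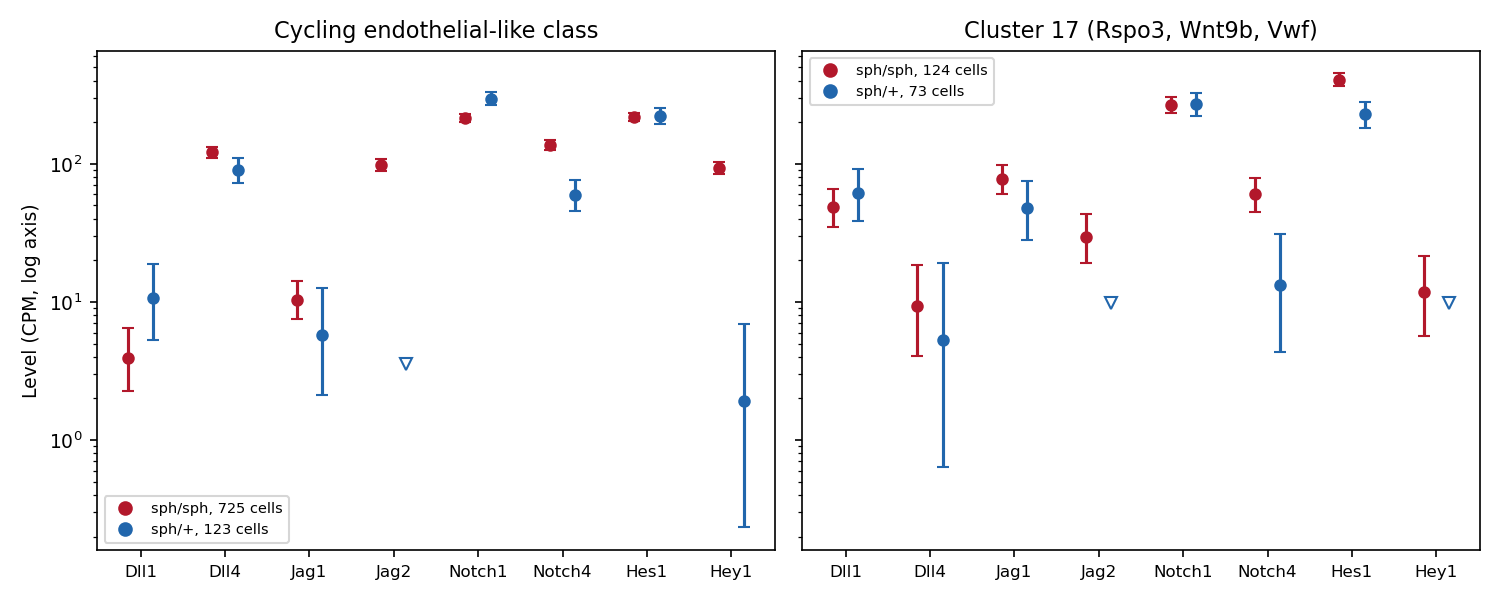
Level in CPM on a log axis of 8 genes in the cycling endothelial-like class (left) and in cluster 17 (right), in sph/sph (red) and sph/+ (blue); bars are 95% exact Poisson intervals, and open triangles mark the upper interval bound where no UMI was counted. Jag2 and Notch4 are higher in sph/sph in both panels, and Notch1 is at 268 CPM in sph/sph and 271 CPM in sph/+ in cluster 17.

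Within single clusters, targets were detected somewhat more often in cells with a Dll4 UMI, mostly within counting error. After thinning, the share with a Hes1 UMI was higher in cells with Dll4 in 14 of 14 clusters, with separate intervals in 4. The share with Hey1 was higher in 14 of 14, with separate intervals in 2. Some of these Hey1 counts were very few, as in cluster 2 of sph/+, with 1 of 239 cells with and 3 of 2291 without Dll4. Pairs of other genes were not compared, so how often any 2 genes would give such counts is not known. In sph/sph cluster 6, 48.8% (44.4 to 53.3) of cells with a Dll4 UMI and 42.7% (39.2 to 46.3) of cells without one had a Hey1 UMI, with overlapping intervals. In cluster 5 of sph/sph the Hey1 shares were 20.8% with and 12.2% without Dll4, and the Hes1 shares were 31.8% with and 23.4% without. In cluster 2 of sph/+ the Hes1 shares were 43.1% with and 32.1% without. For Jag2, the shares of Hey1 in cluster 6 were 45.5% with and 44.9% without it, and no cluster had separate intervals for Jag2 with either target. For Jag1 the Hes1 share was higher with it in 1 of 6 clusters and the Hey1 share in 2 of 6. In cluster 6 of sph/sph the Hes1 share was 7.58% (2.51 to 16.8) with and 23.2% (20.9 to 25.7) without Jag1. The Hey1 share there went the other way, with 60.6% (47.8 to 72.4) with and 44.3% (41.5 to 47.1) without Jag1. These are detections of sparse counts in cells of 1 mouse each, and ligand and target in the same cell say nothing of which neighbour signalled to it.

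Of 42 other genes of the pathway, 26 were measured. Of these, 1 passed 2-fold upward and 2 downward, where 21.6% of all measured genes passed it in either direction, and their median log2 ratio was -0.20. The 1 higher was Nrarp, a Notch target that feeds back on the pathway, with 143 CPM in sph/sph and 57.3 CPM in sph/+ (log2 ratio 1.31). In sph/+ it ran along the same axis as Dll4, with 40.0, 43.6, 53.2, 63.2 and 83.5 CPM from the central to the portal end, and it reached 180 CPM in cluster 11. In sph/sph it was highest in cluster 3 at 235 CPM and low in lymphatic-like cells at 25.7 CPM. Hey2, the other target on the list with a known arterial role, had 0.326 CPM in sph/sph and 0.109 CPM in sph/+ and was not measured. The receptors Notch2 (3.61 CPM in sph/sph, 2.33 CPM in sph/+) and Notch3 (0.211 CPM in sph/sph, 0.130 CPM in sph/+) were under the floor as well.

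The 2 lower genes were Lfng and Psen2. Lfng, a Fringe enzyme that adds sugar to Notch and changes its response to ligands, had 26.4 CPM in sph/sph and 55.6 CPM in sph/+ (log2 ratio -1.04). In sph/+ its course was opposite to that of Dll4, with 129, 84.9, 39.2, 17.8 and 12.5 CPM from the central to the portal end. In sph/sph the continuous vascular-like clusters had 8.20 to 19.2 CPM and the lymphatic-like cells 70.8 CPM. Mfng, another Fringe, had 82.1 CPM in sph/sph and 45.4 CPM in sph/+ (log2 ratio 0.84). Psen2, a catalytic subunit of the gamma-secretase that cuts Notch, had 75.8 CPM in sph/sph and 198 CPM in sph/+ (log2 ratio -1.38). The nuclear partner Rbpj had 31.4 CPM in sph/sph and 41.3 CPM in sph/+ (log2 ratio -0.38), and none of the 8 nuclear genes was 2-fold apart. Of 11 arterial markers 8 were measured, 5 passed 2-fold upward and 1 downward, with a median log2 ratio of 1.37, beside 11.0% upward, 10.6% downward and a median of -0.08 over all measured genes. Their summed RNA was uneven within sph/sph, with 2048 CPM in cluster 6 and 4563 CPM in cluster 15. Clusters 3, 4 and 5 of sph/sph had 544, 577 and 538 CPM and lymphatic-like cells 481 CPM, beside 623 CPM in LSEC-like cells of sph/+.

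The genes most like each member were taken by Pearson's r of log2(CPM + 20) over 18 groups, 11 clusters of sph/sph and 7 of sph/+, among 9515 genes. The groups share 2 libraries and their cell classes, so these values are descriptions. Jag2 was most like Tmem252 (r = 0.988), Mcf2l (0.976) and Pcdh1 (0.974). Dll4 was most like Efnb2 (0.906), an arterial ephrin ligand that also stands on the portal and arterial marker lists, followed by Spen (0.825) and Baz2a (0.824). Jag1 was most like Unc13b (0.943), Ednrb (0.938), a receptor for endothelin, and Traf1 (0.920). Dll1 was most like Bmyc (0.938), Plvap (0.934), which forms the diaphragms of fenestrae, and Pgm5 (0.930).

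For the receptors and targets, Notch4 was most like Shroom4 (0.964), Sparc (0.961), a matrix protein, and Plekha1 (0.957). Notch1 was most like Atp2b4 (0.911), Sh3rf1 (0.911) and Tns2 (0.906). Hey1 was most like Arhgef28 (0.918), Pparg (0.916), a nuclear receptor of lipid metabolism, and Rnf125 (0.913). The highest value for Hes1 was 0.752, for Camsap2 and for Tns2, followed by Avl9 at 0.748.

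Markers of other cells in the endothelial-like clusters differed between libraries. Haemoglobin and other erythroid markers summed to 2939 CPM in sph/sph and 0.239 CPM in sph/+, stellate or fibroblast markers to 387 CPM in sph/sph and 51.4 CPM in sph/+, hepatocyte markers to 123 CPM in sph/sph and 78.7 CPM in sph/+, and mesothelial markers to 130 CPM in sph/sph and 0.109 CPM in sph/+. Without the 108 sph/sph cells with over 1% haemoglobin UMIs, the count of members at least 2-fold apart was 3 higher and 1 lower, as with them. The part of the other markers in the members' levels was not tested.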

How the data were processed

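Endothelial cells of 1 sph/sph and 1 sph/+ mouse were profiled, 1 library each. The deposited values are raw UMI counts per gene and cell. Per the submitters' processing notes they come from Cell Ranger 3.0 and build mm10, while the matrix header, per the file headers, gives software version 3.1.0. The annotation release and the use of strand in counting are not given in the sources used here.

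Cells with at least 500 genes, at least 1000 UMIs and at most 15% mitochondrial UMIs were kept. Doublets were scored per library by the Scrublet method in scanpy 1.11.5. The automatic threshold marked 0 cells, so the highest scores were removed at the expected rate of 0.8% per 1000 barcodes, 1763 sph/sph and 1337 sph/+ cells. On log values of counts brought to 10000 per cell, the 2000 most variable genes, with every Notch gene left out, gave 30 components, 15 neighbours and 26 Leiden clusters (leidenalg 0.10.2, resolution 1.0), of which 19 were endothelial-like. A marker counted as detected in at least 25% of a cluster's cells. Names needed 3 of 14 pan-endothelial markers and then 9 of 12 LSEC, 5 of 15 continuous vascular or 4 of 7 lymphatic markers, or 3 cycling markers among the top 10 genes, with no lead of another type there. Between LSEC and continuous vascular the list with the larger share detected decided. After the clusters were seen, 2 points of this naming were set: another type's marker among the top 10 counts only if detected in 25% of cells, and an LSEC-like or continuous vascular-like name needs at least 1 own marker among the top 10, where central and portal LSEC markers count as LSEC.

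Counts were summed over cells and given as CPM of the summed cells. Levels have exact Poisson intervals, shares exact Clopper-Pearson intervals, and ratios exact binomial intervals, at 95%. The log2 ratio is sph/sph over sph/+ after adding 1 CPM to both, a gene is measured at 20 CPM in either group, and a difference is counted at 2-fold. With 1 library per genotype there is no test. In simulated counts with 200 genes changed 3-fold among 6888, 94% passed the 2-fold bound and 0 unchanged genes did. The simulation cannot speak for differences between mice, libraries or cell classes, since each genotype has 1 library. Tools were Python 3.11.15, numpy 2.4.6, scipy 1.17.1 and pandas 2.3.3. Gene positions come from GENCODE on GRCm38 and promoter windows from RefSeq. Depths are in the results above.

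The members and lists were chosen with earlier results of these data known. All 9 members are named, with other Notch genes at least 2-fold apart, 7 fixed ones, and the 3 genes most like each member. A result that needs a withheld item is not reported here. The likeness was computed over clusters of each library with at least 50 cells. Alternatives covered scaling, cell weighting, the floor, the CPM added, the cells kept, doublets, clustering, bins and thinning.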

Additional observations from a re-analysis of the deposited data

Results flagged for a closer look

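In clusters outside the endothelial comparison, 2 results were flagged where a member stood above its endothelial level of the same library. Other members did so too, in 335 hepatocyte-marked sph/sph cells that carried 30953 CPM of continuous vascular markers. Hey1 had 198 CPM (175 to 224), Notch4 171 CPM (149 to 195), Notch1 215 CPM (191 to 242) and Jag2 131 CPM (112 to 152) there. Jag1 and Dll1 were lower there than in endothelial-like sph/sph cells, at 7 and 3.11 CPM. The flagged results were those of Heyl and Hes1. Heyl had 13 UMIs in 482 sph/+ cells of cluster 9, marked by stellate or fibroblast genes, which is 5.47 CPM (2.91 to 9.35), against 0.130 CPM in all endothelial-like sph/+ cells. Hes1 had 2017 UMIs in 172 sph/+ cells of cluster 19, marked by cholangiocyte genes, which is 964 CPM (923 to 1007), against 388 CPM in all endothelial-like sph/+ cells. The cells of cluster 19 had a median of 10442 UMIs and 13437 CPM of immediate early genes, and the part of these in the Hes1 level was not tested.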

How the results depend on the processing

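No paired analysis was possible because each genotype has 1 library, and for the same reason no replicate could be left out. None of the member ratios past 2-fold changed sign over 16 alternatives. Among these, the changes of the floor cannot move a member's ratio, since the floor only decides which genes are counted. The log2 ratio of sph/sph over sph/+ ranged from 4.20 to 6.63 for Jag2, from 3.85 to 4.88 for Hey1, from -1.26 to -1.06 for Notch1, from 0.98 to 1.46 for Notch4, from -0.88 to -0.56 for Hes1, from 0.17 to 0.73 for Jag1, from -1.48 to -0.30 for Dll1 and from -0.20 to 0.22 for Dll4. The members at least 2-fold lower in sph/sph were 2 without lymphatic-like cells, and also 2 for continuous vascular-like against LSEC-like cells, a comparison chosen after seeing the data, as were leaving out haemoglobin-rich cells, the bins without cluster 11 and the clusters shared at other resolutions. The second was Dll1. The members at least 2-fold higher were 2 with 5 CPM added and with the stricter cell filter, since Notch4 dropped under the bound. The count of all genes past 2-fold upward in sph/sph was 1370 with a floor of 5 CPM, 514 with a floor of 50 CPM and 1853 with none, because the floor sets how many genes enter. At Leiden resolution 2.0 the continuous vascular-like share of sph/sph was 66.2%. Depth limits Heyl, Hey2, Notch3 and, in sph/+, Jag2 and Hey1.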
